A study of Mus musculus with 6 samples.

Results

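The YAP/TAZ factors and target genes are 10 genes of the Hippo pathway: the coactivator genes Yap1 and Wwtr1 (which encodes TAZ), the gene of their DNA-binding partner Tead1, and 7 of their known target genes, Ccn1 (older symbol Cyr61), Ccn2 (older symbol Ctgf), Ankrd1, Amotl2, Axl, Lats2 and Ajuba. They were chosen by symbol, through the Ensembl identifiers of the GENCODE M21 mouse annotation, and all 10 were found among the 16540 genes measured and passed the filter on low counts. RNA came from NIH-3T3 cells, an established line of mouse embryonic fibroblasts of NIH/Swiss origin, in 6 libraries. Lentivirus had delivered Cas9 together with 1 of 3 guides to each pool, which was then kept under 2 ug/mL puromycin to remove uninfected cells and stayed uncloned. The control pool carried R26 sg1 and the other pools carried PC sg2 or PC sg5, named after pyruvate carboxylase (mouse gene Pcx), the mitochondrial enzyme that makes oxaloacetate from pyruvate. All 3 pools, the control included, spent 48 h in DMEM with 0.2 mM glutamine and 10% dialyzed serum, and each guide had 2 libraries (n = 2). The labels leave it unsaid whether both libraries of a guide derive from separate cultures; p-values then measure only the spread between these libraries, which may be technical. A pool can hold unedited cells, and in bulk RNA fewer expressing cells and less RNA per cell cannot be told apart.

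YAP and TAZ carry signals from cell shape, cell density and the Hippo kinases into the nucleus. The kinases of the pathway phosphorylate YAP and TAZ, which keeps them in the cytoplasm or marks them for degradation, and unphosphorylated YAP and TAZ enter the nucleus and act on DNA through TEAD proteins. In fibroblasts they are known for responding to stiff substrates and for driving matricellular and cytoskeletal genes, and several of their targets, Lats2, Amotl2 and Ajuba among them, encode proteins that act back on the pathway. Messenger RNA shows neither the phosphorylation nor the location of YAP and TAZ.

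Most of the promoters found for these genes carry the letters that TEAD proteins are known to bind, which is why the sequences are shown first. Promoter sequences of 8 of the 10 genes were matched by symbol in RefSeq (GRCm38.p6); Tead1 and Ccn2 were not matched. The 250 bases before each start were searched on both strands for the TEAD motif GGAATG. It was found for 7 of the 8 genes (Yap1, Wwtr1, Ccn1, Ankrd1, Amotl2, Axl and Ajuba) and for neither start of Lats2, and 12.6% of all 32851 promoters in the table hold it. The AP-1 motif TGANTCA (6.75% of all promoters) and the CArG box (1.47%) were found for none of the 8, so no match of one motif overlapped another. The promoters of Ajuba and Ccn1, which lie outside every annotated gene and belong to a member with a large change and the one with the smallest, are given whole on the strand of the gene (the minus strand in each case), with the TEAD motif or its reverse complement CATTCC in capitals. Ajuba spans chr14:54577662-54577911 and Ccn1 spans chr3:145649986-145650235.
Ajuba: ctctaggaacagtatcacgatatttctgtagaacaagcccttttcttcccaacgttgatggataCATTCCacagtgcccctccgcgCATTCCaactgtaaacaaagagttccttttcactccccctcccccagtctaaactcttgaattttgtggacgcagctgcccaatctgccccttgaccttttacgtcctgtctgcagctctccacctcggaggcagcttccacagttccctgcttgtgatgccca
Ccn1: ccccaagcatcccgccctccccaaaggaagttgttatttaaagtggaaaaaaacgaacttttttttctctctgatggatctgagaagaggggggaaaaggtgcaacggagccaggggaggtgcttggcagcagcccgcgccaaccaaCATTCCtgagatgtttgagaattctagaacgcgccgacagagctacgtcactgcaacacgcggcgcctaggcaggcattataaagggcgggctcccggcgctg

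Each motif of the 7 genes is shown with 10 bases on either side, on the strand that reads GGAATG (capitals), so that the flanks can be compared.
Ankrd1 chr19:36119952-36119977 (minus strand): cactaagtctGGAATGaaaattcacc
Ankrd1 chr19:36120039-36120064 (minus strand): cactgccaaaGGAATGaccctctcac
Ajuba chr14:54577810-54577835 (plus strand): gtttacagttGGAATGcgcggagggg
Ajuba chr14:54577832-54577857 (plus strand): ggggcactgtGGAATGtatccatcaa
Amotl2 chr9:102717729-102717754 (minus strand): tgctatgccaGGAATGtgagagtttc
Ccn1 chr3:145650073-145650098 (plus strand): aaacatctcaGGAATGttggttggcg
Axl chr7:25788951-25788976 (minus strand): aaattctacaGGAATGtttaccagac
Wwtr1 chr3:57576031-57576056 (minus strand): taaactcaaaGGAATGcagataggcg
Yap1 chr9:8004722-8004747 (minus strand): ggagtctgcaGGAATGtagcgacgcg
Ankrd1 and Ajuba have 2 motifs each and the other 5 genes have 1. In GENCODE M21 the sites of Ankrd1 and Amotl2 fall in an exon and UTR of a transcript of the same gene that starts farther upstream, and the other 6 sites fall in no annotated exon. Genes with the motif include members that rose, fell and did not pass the test below. Among all tested genes with a promoter in the table, the 1431 with the motif had a median log2 fold change of -0.07 for both PC guides against control, and the 9626 without it had 0.03. A match is a description of these letters and not a measured binding site.

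Recovered reads came to between 22895172 (PC sg5 replicate 2) and 71710049 (control replicate 2) per library. Members had between 319 reads (Ankrd1) and 52988 reads (Axl) in a library, so none lay near the limit of detection. Values are normalised counts (reads divided by a size factor of the library), which compare a gene between libraries; levels of different genes are compared only per kilobase of annotated exon. Fold changes are on the log2(normalised count + 1) scale, from limma fitted over all 16526 tested genes, two-sided, with Benjamini-Hochberg adjustment over all of them and an adjusted p under 0.05 as the threshold. The targeted gene Pcx had 2914 and 3015 normalised counts in the control libraries, 316 and 375 under PC sg2, and 713 and 716 under PC sg5, so it was lower in all 4 PC libraries. The 8 fibroblast markers examined were all in the table, and all of them fell with the PC guides (summed level 1619340 to 1676468 in the controls, 922889 to 956920 in the PC libraries). All 8 passed the threshold as lower, as did 33.6% of all tested genes. Of the 8, 6 fell at least 2-fold, against 11.3% of all tested genes. Of 7 epithelial markers only Cdh1 was in the table, at 57.4 and 58.7 in the controls and between 8.55 and 19.1 in the PC libraries. Leukocyte and macrophage markers (3 of 7 in the table) summed to 418 to 482 and 187 to 257, and endothelial markers (2 of 6) to 36.3 to 45.5 and 32.4 to 53.0; their part in the results was not tested.

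With both PC guides, Wwtr1 and most target genes were higher, Yap1 and Axl were lower and Ccn1 was level. Of the 10 genes 9 passed the threshold, 7 higher and 2 lower, for both guides against control, and the counts were again 9 (7 higher, 2 lower) with PC sg2 and 9 (7 higher, 2 lower) with PC sg5. The comparisons with each guide share the control libraries. Over all genes, 67.9% passed with both guides together (34.3% higher, 33.6% lower), 64.5% with PC sg2 (32.9% higher, 31.6% lower) and 64.5% with PC sg5 (32.6% higher, 31.8% lower). Among the 9169 genes with a mean at or above that of Ankrd1, the member with the lowest mean, 84.3% passed (47.0% higher, 37.3% lower), so 9 of 10 is close to the share among genes measured as deeply. A change of at least 2-fold was seen in 1 member, Ankrd1, against 17.8% of all genes (6.48% higher, 11.3% lower). For the same 9 members the 4 PC libraries did not overlap the controls, as for 73.2% of all genes (36.6% higher, 36.6% lower). The median log2 fold change was 0.41 over the 10 genes, 0.10 over the 3 factors and 0.45 over the 7 targets, beside -0.01 over all tested genes.

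**Figure D1:**
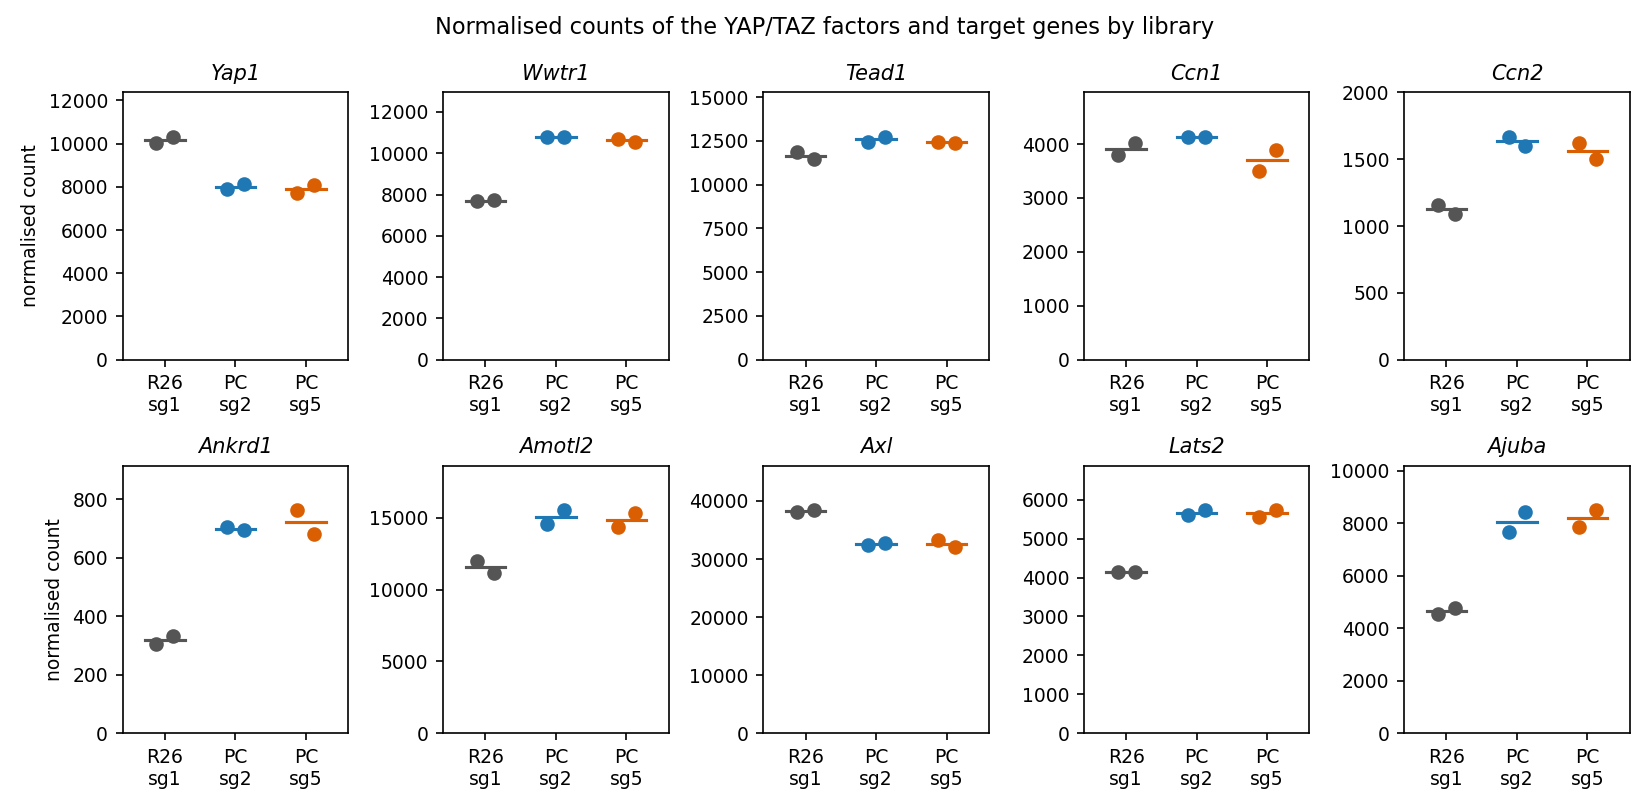
Normalised counts (vertical axes, from 0) of each of the 10 genes in the 2 libraries of each guide (points), with bars at the group means. Wwtr1, Ccn2, Ankrd1, Amotl2, Lats2 and Ajuba sit higher in all 4 PC libraries than in both controls, Yap1 and Axl sit lower, Tead1 sits slightly higher and Ccn1 overlaps.

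The coactivators moved in opposite directions. Yap1 (ENSMUSG00000053110, GRCm38 chr9:7931999-8004596, minus strand) had 10014 and 10327 normalised counts in the control libraries, 7887 and 8114 under PC sg2, and 7699 and 8075 under PC sg5. All 4 PC libraries lay below both controls, at 78.1% of the control mean. The log2 fold change was -0.36 ± 0.03 (SE; limma adjusted p = 8.20e-10).

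Wwtr1 (ENSMUSG00000027803, chr3:57455649-57575910, minus strand) had 7681 and 7719 normalised counts in the control libraries, 10805 and 10783 under PC sg2, and 10699 and 10542 under PC sg5. The groups did not overlap, and the mean went from 7700 ± 27.3 (SD, n = 2) to 10707 ± 119 (SD, n = 4), a log2 fold change of 0.48 ± 0.03 (SE; limma adjusted p = 9.22e-13). Per kilobase of exon, TAZ messenger RNA was the more abundant of the pair in every library. The ratio of Wwtr1 to Yap1 per kilobase was 1.49 and 1.45 in the controls, 2.65 and 2.57 under PC sg2, and 2.69 and 2.53 under PC sg5. Their summed level per kilobase was 2689 and 2731 in the controls and between 3070 and 3133 in the PC libraries. These ratios rest on merged exon lengths from the annotation (9257 bases for Yap1, 4779 for Wwtr1) and were not tested.

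Tead1 (ENSMUSG00000055320, chr7:112679318-112906807, plus strand), the DNA-binding partner, had 11850 and 11455 normalised counts in the control libraries, 12439 and 12746 under PC sg2, and 12465 and 12389 under PC sg5. The PC libraries lay above both controls by a small margin, with a log2 fold change of 0.10 ± 0.03 (SE; limma adjusted p = 0.00193). This call rests on control replicate 2: without it the log2 fold change was 0.08 and the adjusted p was 0.0641, and without the intensity trend in the variance model the adjusted p was 0.0633.

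Of the other TEAD genes, relatives of Tead1 that bind the same motif, Tead2 and Tead4 rose and Tead3 fell. Tead3 had 4079 and 4061 normalised counts in the control libraries, 1319 and 1287 under PC sg2, and 1402 and 1400 under PC sg5, a log2 fold change of -1.59 ± 0.05 (SE; limma adjusted p = 6.38e-18). It was left at 33.2% of the control level, and 5.13% of all tested genes had a lower fold change. Tead4 rose by 0.50 ± 0.06 (adjusted p = 1.71e-07), from 821 and 811 to between 1133 and 1160 normalised counts. Tead2 rose by 0.15 ± 0.04 (adjusted p = 0.00168), a call lost without control replicate 1 (0.09, adjusted p = 0.123) and without the intensity trend (adjusted p = 0.0554). Per kilobase of exon the 4 genes summed to 2420 and 2453 in the controls and between 2231 and 2309 in the PC libraries. Tead3 made up 25.1% and 24.7% of that sum in the controls and between 8.30% and 9.35% in the PC libraries, while Tead1 made up 36.1% and 34.4% in the controls and between 40.1% and 40.9% in the PC libraries.

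**Figure D2:**
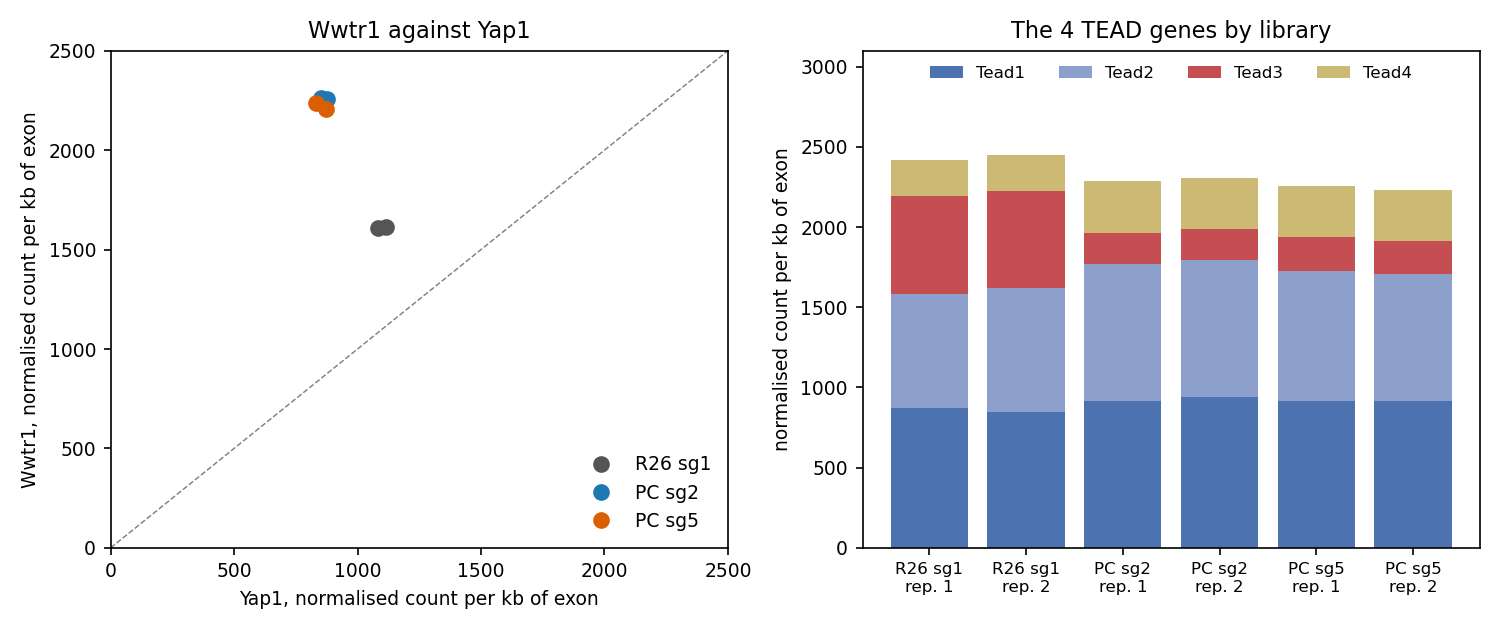
Left, Wwtr1 against Yap1, both in normalised counts per kilobase of exon, 1 point per library, with the dashed line at equal levels; all 6 libraries lie above it, and the PC libraries (ratio 2.53 to 2.69) lie farther from it than the controls (1.45 and 1.49). Right, the 4 TEAD genes stacked per library in the same unit; the Tead3 band is narrower in the 4 PC libraries than in both controls.

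VGLL proteins bind TEADs through the same surface region as YAP and TAZ and so can compete with them. Vgll1 and Vgll2 were not in the table, and the 2 that were, Vgll4 and Vgll3 (the second named after its value was seen), fell by 0.78 ± 0.04 and 0.67 ± 0.03 on the log2 scale (SE; limma adjusted p = 6.70e-13 and 7.60e-14). Vgll4 went from 4884 and 5057 normalised counts to between 2741 and 3021, and Vgll3 from 9081 and 9352 to between 5406 and 6055.

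Among the targets, Ankrd1 changed most. It encodes a nuclear ankyrin repeat protein of stretched muscle and wounded tissue. Ankrd1 (ENSMUSG00000024803, chr19:36111961-36120099, minus strand) had 304 and 334 normalised counts in the control libraries, 704 and 694 under PC sg2, and 763 and 682 under PC sg5. All 4 PC libraries were above both controls, with a mean 2.23 times the control mean and a log2 fold change of 1.16 ± 0.08 (SE; limma adjusted p = 6.58e-11). Of all tested genes, 4.93% had a higher fold change. Its 2 TEAD motifs are among the sites printed above.

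The CCN genes, which encode secreted matricellular proteins and are the most used readouts of YAP and TAZ, differed from each other. Ccn2 (ENSMUSG00000019997, chr10:24595442-24598683, plus strand) had 1157 and 1093 normalised counts in the control libraries, 1669 and 1599 under PC sg2, and 1621 and 1503 under PC sg5. The groups did not overlap, and the log2 fold change was 0.51 ± 0.06 (SE; limma adjusted p = 4.26e-08).

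Ccn1 (ENSMUSG00000028195, chr3:145646976-145649981, minus strand) had 3802 and 4025 normalised counts in the control libraries, 4125 and 4138 under PC sg2, and 3508 and 3890 under PC sg5. PC sg2 libraries lay above both controls, and 1 of the 2 PC sg5 libraries lay below them. Control and PC means were 3913 ± 157 (SD, n = 2) and 3915 ± 294 (SD, n = 4), the 95% interval of the log2 fold change ran from -0.09 to 0.09, and the gene did not pass (limma adjusted p = 0.972). Its log2 fold change was 0.08 with PC sg2 (adjusted p = 0.164) and -0.08 with PC sg5 (adjusted p = 0.145). The value with PC sg5 depended on both of its libraries: it was -0.16 without replicate 2 and -0.008 without replicate 1. Per kilobase of exon, the ratio of Ccn2 to Ccn1 was 0.215 and 0.192 in the controls and between 0.273 and 0.326 in the PC libraries, a description with no test.

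Of the targets that are members, those that act back on the pathway (Ajuba, Lats2 and Amotl2) were all higher. So were 34.3% of all genes and 47.0% of the genes measured as deeply as the members. Ptpn14, a published target outside the members that is also listed below among binding partners of YAP and TAZ, was lower (log2 fold change -0.26). Ajuba (ENSMUSG00000022178, chr14:54567472-54577558, minus strand), a LIM protein that binds LATS kinases, had 4559 and 4757 normalised counts in the control libraries, 7669 and 8436 under PC sg2, and 7871 and 8505 under PC sg5. The lowest PC library was far above the higher control, and the log2 fold change was 0.80 ± 0.04 (SE; limma adjusted p = 6.18e-14).

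Lats2 (ENSMUSG00000021959, chr14:57689662-57758388, minus strand), a kinase that phosphorylates YAP and TAZ, had 4146 and 4152 normalised counts in the control libraries, 5597 and 5728 under PC sg2, and 5568 and 5733 under PC sg5. The groups did not overlap, and the log2 fold change was 0.45 ± 0.03 (SE; limma adjusted p = 7.51e-11).

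Amotl2 (ENSMUSG00000032531, chr9:102716672-102733418, plus strand), an angiomotin family protein that holds YAP in the cytoplasm, had 12013 and 11187 normalised counts in the control libraries, 14561 and 15539 under PC sg2, and 14352 and 15313 under PC sg5. The groups did not overlap, and the log2 fold change was 0.37 ± 0.03 (SE; limma adjusted p = 2.85e-09).

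Axl was the only target of the 7 that fell. It encodes a receptor tyrosine kinase for the ligand GAS6, and per kilobase of exon it was the most abundant of the 10 genes (7596 in the controls, 6481 in the PC libraries, as group means). Axl (ENSMUSG00000002602, chr7:25757273-25788705, minus strand) had 38032 and 38425 normalised counts in the control libraries, 32436 and 32740 under PC sg2, and 33307 and 31988 under PC sg5. All PC libraries lay below both controls, and the log2 fold change was -0.23 ± 0.02 (SE; limma adjusted p = 6.71e-09). Its size depends on the scaling: under quantile normalisation it was -0.07, still past the threshold (adjusted p = 0.00586).

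Without a stated use of the strand in counting, a read from exons that 2 genes share has no known owner. Shared bases make up 42.4% of the exons of Lats2 (with Gm49361), 23.2% of Ccn2 (with Gm15270), 1.25% of Yap1 (with Gm20416) and none of the other 7 genes.

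The PC guides gave like values for the members, as the plot of the changes with each guide shows. In the direct test of PC sg5 against PC sg2, 0 of 10 passed with limma, 0 with edgeR and 0 with DESeq2 run without its independent filtering (with that filtering only 5 members received an adjusted p, and 0 passed), where 0.242% of all genes passed with limma, and 1 member (Ccn1) had an unadjusted p under 0.05. For Ccn1 the difference was -0.16 (95% interval -0.26 to -0.06, limma adjusted p = 0.200), with both PC sg5 libraries below both PC sg2 libraries (39.3% of all genes did not overlap here), and it was -0.09 without PC sg5 replicate 1. For the other 9 genes the 95% intervals lay within -0.20 to 0.25 on the log2 scale, the widest being that of Ankrd1. In the same libraries Pcx was 2.07 times as high with PC sg5 as with PC sg2 (means of 715 and 345 normalised counts).

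**Figure D3:**
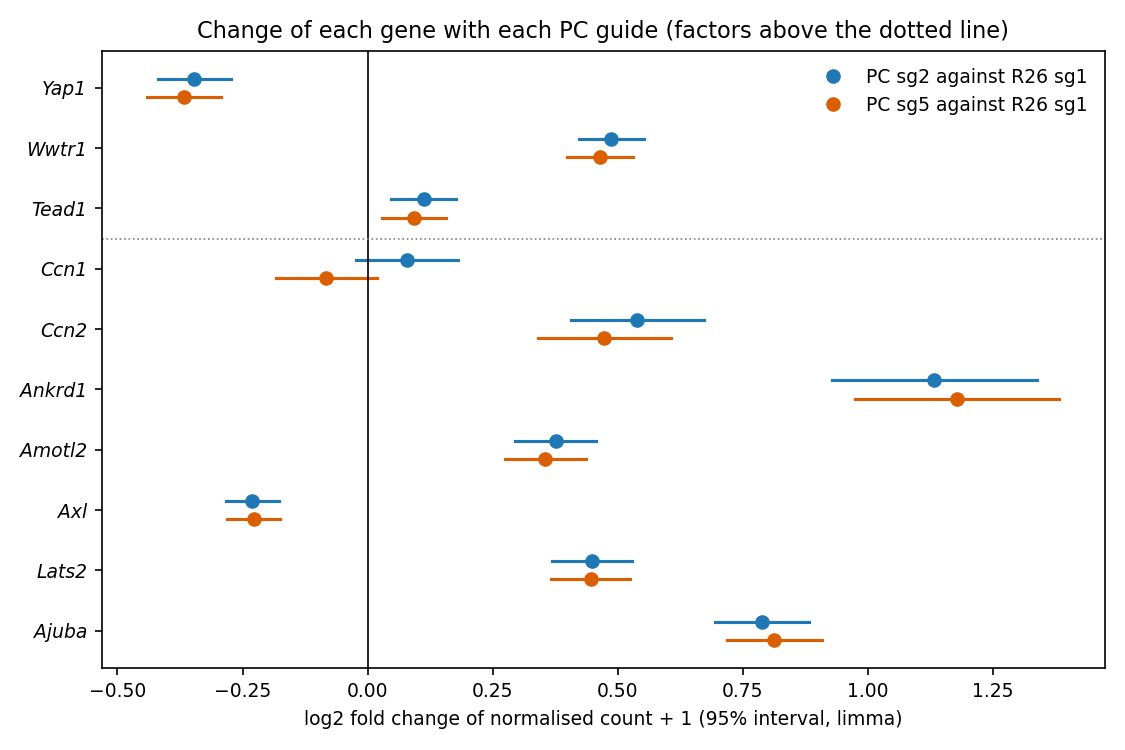
Log2 fold change of each gene with PC sg2 and with PC sg5 against R26 sg1 (points), with 95% intervals from limma (lines); the factors are above the dotted line and the targets below it. For 9 genes both intervals lie on 1 side of 0, and for Ccn1 both include 0.

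Other published targets moved in both directions. The published signature of 22 YAP/TAZ targets contains 6 of the members here, and of its other 16 genes 5 rose and 10 fell, 1 missed the threshold, and the median log2 fold change was -0.34, where 34.3% of all genes rose and 33.6% fell (47.0% and 37.3% of the genes measured as deeply as the members). Gadd45a, a growth arrest gene that stress also induces, rose from 864 and 794 to between 8541 and 9200 normalised counts (log2 fold change 3.43 ± 0.04, SE; limma adjusted p = 7.05e-24), and 19.1% of its exon bases overlap another gene. Crim1, which encodes a membrane protein that binds growth factors of the TGF-beta superfamily, rose by 1.07 ± 0.03 (adjusted p = 1.88e-18). Ccdc80, a matrix protein gene, fell from 10515 and 10283 to between 3459 and 3887 normalised counts (-1.51 ± 0.04, adjusted p = 2.25e-18). Nt5e, an ectonucleotidase gene, fell by 1.09 ± 0.40 from 36.0 to 16.6 normalised counts (adjusted p = 0.0214), a call lost without control replicate 1 (adjusted p = 0.0636), control replicate 2 (adjusted p = 0.196) or PC sg2 replicate 2 (adjusted p = 0.0622). The gene that did not pass, Fjx1, had a log2 fold change of 0.09 (adjusted p = 0.748) at under 100 normalised counts in every library.

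Of 22 genes of the kinase cascade and its upstream regulators 9 rose, 11 fell and 2 did not pass (Map4k2 and Taok3, at -0.13 and -0.05), with a median of -0.11. The 20 that passed stand beside 67.9% of all genes and 84.3% of those measured as deeply as the members. The 2 largest rises were in Mob1b, an activator of LATS kinases (0.96 ± 0.04, SE; limma adjusted p = 4.99e-16), and Wwc1, the KIBRA scaffold (0.88 ± 0.04, adjusted p = 6.64e-14). The 2 largest falls were in the atypical cadherin genes Fat4 (-1.87 ± 0.04, adjusted p = 1.13e-19) and Dchs1 (-1.12 ± 0.19, adjusted p = 2.42e-05), which encode a receptor and ligand pair. Fat4 went from 9925 and 10898 to between 2766 and 2948 normalised counts, whereas Dchs1 had only 163 to 167 in the controls and between 66.8 and 85.5 in the PC libraries.

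A list of 15 genes held those for proteins that bind YAP and TAZ or mark them for turnover, with the Ajuba relatives Limd1 and Wtip. Of these, 5 rose, 8 fell and 2 did not pass (Limd1 and Wtip), with a median of -0.13. The 13 that passed are near the 84.3% among genes measured as deeply as the members (67.9% of all genes). Ptpn14, named because it is counted both here and among the other published targets, fell by 0.26 ± 0.03 (SE; limma adjusted p = 2.59e-07). Csnk1e, a casein kinase gene, and Ywhag, an adaptor that binds phosphorylated YAP, rose by 0.49 ± 0.03 and 0.46 ± 0.02 (SE; limma adjusted p = 5.17e-12 and 1.07e-13). Amot, the founding angiomotin gene, and Btrc, a ubiquitin ligase subunit, fell by 0.64 ± 0.03 and 0.54 ± 0.05 (adjusted p = 5.95e-15 and 7.35e-10).

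Values of close relatives of the members, chosen for their kinship with results known, are set beside them here, with no test of the differences. Lats1 rose by 0.44 ± 0.03 (SE; limma adjusted p = 1.69e-10), beside 0.45 for Lats2. In the angiomotin family Amotl2 rose while Amot and Amotl1 fell (Amotl1 by 0.24 ± 0.03, adjusted p = 5.03e-08). In the Ajuba family Limd1 and Wtip had log2 fold changes of 0.09 and 0.01 and did not pass (adjusted p = 0.0575 and 0.832), beside 0.80 for Ajuba. The Limd1 value is near the threshold: it passed among genes averaging at least 50 normalised counts (adjusted p = 0.0457), without PC sg2 replicate 1 (0.0152), without PC sg5 replicate 1 (0.0104) and with the replicate number as a block (0.0228).

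**Figure D4:**
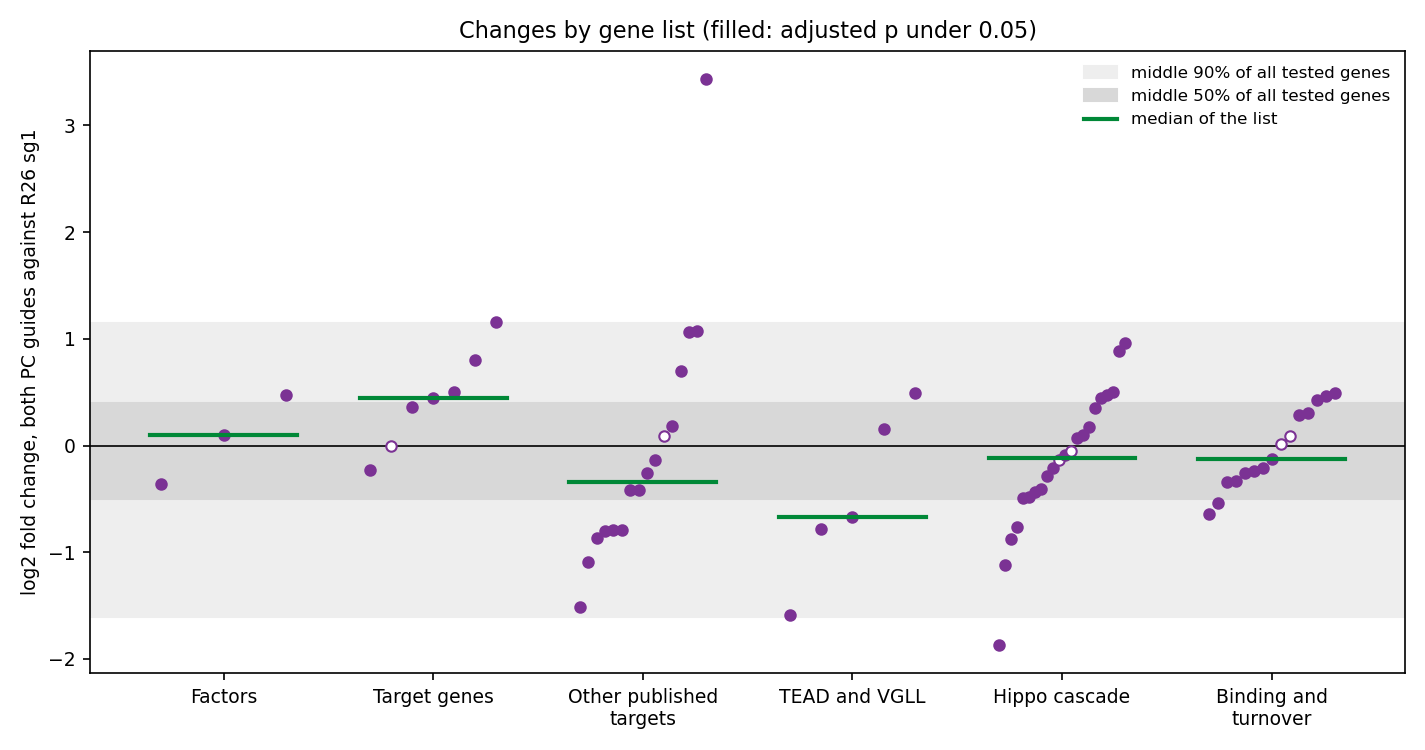
Log2 fold change of both PC guides against R26 sg1 for each gene of the 6 lists (points, filled where the adjusted p was under 0.05), with the median of each list (green bars) and the middle 50% and 90% of all tested genes (grey bands, -0.50 to 0.40 and -1.61 to 1.15). The 7 targets have a median of 0.45, and the 16 other published targets have a median of -0.34 and hold the highest point, Gadd45a.

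The genes most like Yap1 and Ccn2 were sought by the distance between log2 profiles over the 6 libraries, each centred on its own mean. Those nearest to Yap1 were Wdr13, Cyld and Osbpl5, at distances of 0.0085, 0.013 and 0.033, where the median over all genes was 0.803. Those nearest to Ccn2 were Slc43a3, Msi2 and Ube3c, at 0.043, 0.046 and 0.049 (median 0.848). Since 67.9% of genes differ between the same 2 sets of libraries, near profiles are common, and these names describe likeness in 6 libraries only.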

How the data were processed

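Polyadenylated RNA of 6 libraries (3 guides, 2 each) was sequenced after Trizol extraction and NEBNext Ultra preparation, per the labels' protocols. The GRCm38 build and the tools featureCounts, STAR, DESeq2, Trimmomatic and bcl2fastq 2.17 are listed in the submitters' processing notes. Settings, annotation and strand use were not given in the sources used here. What the authors deposited were normalised counts, a signal equal to reads over a library size factor. In every library 100% of values above 0 were whole multiples (tolerance 0.01) of 1 step, so whole reads were recovered. Of 16540 identifiers 16491 matched a GENCODE M21 symbol exactly.

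The main test was limma 3.58.1 (R 4.3.3) on the log2 scale with a pseudocount of 1, with 3 group means and an intensity trend (3 residual degrees of freedom), for 16526 genes that reached 10 normalised counts in 2 or more libraries. Alternatives included edgeR 4.0.16 and DESeq2 1.42.0 on recovered reads. Counts were simulated for both guides against control over 16526 genes, of which 200, drawn from all levels, were changed. Of the genes changed by 1 on the log2 scale 83.8% were called, and of those changed by 0.5, 67.0%. In the data 67.9% of genes passed, so the adjustment is less strict there. The simulated rates therefore do not give the sensitivity for the members. Replicates differed by more than counting error (chi-square per degree of freedom 3.15 to 4.42). All 10 members were named whatever their result; of each other list the 2 highest and 2 lowest fold changes past the threshold and Tead2 to Tead4 were named. The members, lists and rules were chosen with earlier results of these data known.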

Additional observations from a re-analysis of the deposited data

Results flagged for a closer look

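Effects of the PC guides were set against each other by the direct test of PC sg5 against PC sg2. Among Pcx, the 10 members and the genes of the 4 other lists, 2 genes differed, the targeted gene Pcx and the list gene Igfbp3. Over all genes, 0.242% passed in that test. Pcx was higher with PC sg5 by 1.05 ± 0.08 (SE, log2; limma Benjamini-Hochberg adjusted p = 6.60e-07), with 713 and 716 normalised counts against 316 and 375. Igfbp3, an IGF-binding protein gene of the published target signature, was lower with PC sg5 at -0.32 ± 0.05 (SE, log2; adjusted p = 0.00335), with 1804 and 1836 normalised counts against 2291 and 2264, and it fell against control with both guides together by 0.80 ± 0.04 (adjusted p = 1.95e-13). Without the intensity trend neither passed (adjusted p = 0.328 for Pcx and 0.394 for Igfbp3). The Igfbp3 difference also missed the threshold without PC sg2 replicate 1 (-0.32, adjusted p = 0.0662) or PC sg2 replicate 2 (-0.33, adjusted p = 0.0558). No sample was tested as an outlier because each group has 2 libraries.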

How the results depend on the processing

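Over 16 alternatives the number of members past the threshold for both guides against control was 8 or 9, and for PC sg5 against control 8 to 10. The members' fold changes kept their direction in all of them for the 9 genes past the threshold. The calls that changed were those of Tead1, and of Ccn1 with PC sg5. Without the intensity trend Tead1 also missed the threshold with each guide alone (limma adjusted p = 0.0769 with PC sg2 and 0.118 with PC sg5). Without control replicate 2 its log2 fold change was 0.09 with PC sg2 and 0.07 with PC sg5. Ccn1, which did not pass for both guides, ranged from -0.04 to 0.04. The number of genes past the threshold for PC sg5 against PC sg2, 40, was the least stable count: it was 68 with edgeR, 91 with DESeq2 (only 1468 genes received an adjusted p there, and without independent filtering, an alternative chosen after seeing the data, the count was 54), 65 with a pseudocount of 5, 65 among genes averaging at least 50 normalised counts and 0 without the intensity trend. Leaving out 1 library gave 10 (without PC sg2 replicate 2) to 218 (without PC sg5 replicate 1), with 14 without PC sg2 replicate 1 and 26 without control replicate 1 or 2. No member passed in that comparison under any of the 16. With the replicate number as a block that count was 160, while 9 members still passed for both guides against control. Across all genes, deviations of libraries with the same number were hardly correlated (-0.02, 0.03 and 0.03 between pairs of groups), so the numbers were not taken as pairs. Among the members, replicates differed in the same direction under both PC guides except for Tead1 and Axl. Whether libraries with the same number share a batch was not tested. The 2 controls give little information on their own spread.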
